A study of Homo sapiens with 4 samples.

Results

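The antioxidant and detoxification enzymes of 2 human gastric cancer cell lines were examined here at the level of mRNA, with and without isorhamnetin (ISO), a plant flavonol. The members were chosen by gene symbol: protein-coding genes named as glutathione S-transferases, glutathione peroxidases, peroxiredoxins, thioredoxins, aldo-keto reductases, quinone reductases, superoxide dismutases, metallothioneins and related enzymes. This rule found 31 of the 2897 genes in the deposited table, and no measured value entered it. The rule was, however, chosen with earlier results of these data known. Averaged over the libraries, each of the 31 reached 1 FPKM or more (fragments per kilobase of gene length, scaled to library size). Levels of different genes compare only as far as the deposited gene length matches the mRNA of each. CAT, SOD2, HMOX1, GCLC, GCLM and CYP1A1, which the rule would also take, were not analysed here.

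RNA-seq was performed on cultures of AGS-1 cells (labelled AGS, gastric adenocarcinoma cells) and HGC-27 cells (gastric carcinoma cells), both of wild-type genotype by the labels. In each line 1 library came from untreated cells (control) and 1 from cells given 50 μM ISO for 24 h. The text of the study names a lower dose for the same experiment, and which dose was used could not be settled. The study's text speaks of duplicates in its RNA-seq, whereas 1 library per condition and line was analysed here, and whether a column pools several cultures is not given in the sources used here. No value therefore has a replicate error and no test of ISO within a line was possible. A gene was therefore called changed within a line only where the ratio of (ISO FPKM + 1) to (control FPKM + 1) was at least 2-fold, and intervals given for folds cover the counting of fragments only.

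These enzymes remove peroxides and reactive chemicals from the cell. Peroxiredoxins and glutathione peroxidases reduce peroxides with electrons taken from thioredoxin and glutathione, which are in turn recycled by reductases that use NADPH. Glutathione S-transferases join glutathione to electrophiles, while NQO1 and the aldo-keto reductases reduce quinones and aldehydes. Many of the genes are known targets of the transcription factor NRF2 (NFE2L2), which binds antioxidant response elements and is held back by KEAP1. Others answer to the aryl hydrocarbon receptor, a sensor of planar aromatic compounds, or, in the case of metallothionein, to the metal sensor MTF1.

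Promoter windows from RefSeq (build GRCh38.p14, 250 bases before to 50 bases after a gene's start) matched 25 of the 31 members, and the unmatched genes were GSR, GSS, PRDX1, PRDX6, SOD1 and TXN2. Both strands were searched for the core letters of the antioxidant response element (TGACNNNGC), of the dioxin response element bound by the aryl hydrocarbon receptor (GCGTG) and of the metal response element (TGCACNC, and its second spelling TGCGCNC). The dioxin core can overlap a metal core read on the other strand, as happens in MT2A. The start site behind the window lies 160 bases from the start of the gene in the deposited table for GPX2 and 70 bases for GSTP1, and at the same base for GPX1, GSTM4 and MT2A. Some windows that are not printed lie much farther away, as for GSTO1, GSTK1 and NQO2. The window of GSTO1 begins at base 104254642 of chromosome 10, whereas the table starts the gene at base 104235356. The windows printed here belong to the members on which the results turn. GPX1 and GSTM4 were 2-fold lower with ISO in AGS-1 cells, GPX2 was read almost only in AGS-1 cells, GSTP1 had the highest level in AGS-1 cells, and MT2A differed in sign between the lines. Capitals mark the antioxidant response element core in GPX2 and GSTP1 and the metal response element cores in MT2A. The windows of GPX1 and GSTM4 hold no antioxidant response element core and carry no capitals.
GPX1 (chr3:49358304-49358603, minus strand): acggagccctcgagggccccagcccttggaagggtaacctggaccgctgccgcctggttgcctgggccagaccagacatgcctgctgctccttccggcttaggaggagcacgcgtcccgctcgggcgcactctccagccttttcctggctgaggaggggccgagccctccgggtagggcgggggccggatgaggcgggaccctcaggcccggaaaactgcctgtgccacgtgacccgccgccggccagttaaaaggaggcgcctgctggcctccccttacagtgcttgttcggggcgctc
GPX2 (chr14:64942696-64942995, minus strand): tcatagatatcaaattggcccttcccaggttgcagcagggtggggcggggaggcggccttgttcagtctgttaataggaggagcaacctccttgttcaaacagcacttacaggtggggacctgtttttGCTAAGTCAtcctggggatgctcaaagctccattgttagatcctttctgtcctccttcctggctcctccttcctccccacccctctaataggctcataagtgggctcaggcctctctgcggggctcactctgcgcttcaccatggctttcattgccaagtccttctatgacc
GSTM4 (chr1:109655849-109656148, plus strand): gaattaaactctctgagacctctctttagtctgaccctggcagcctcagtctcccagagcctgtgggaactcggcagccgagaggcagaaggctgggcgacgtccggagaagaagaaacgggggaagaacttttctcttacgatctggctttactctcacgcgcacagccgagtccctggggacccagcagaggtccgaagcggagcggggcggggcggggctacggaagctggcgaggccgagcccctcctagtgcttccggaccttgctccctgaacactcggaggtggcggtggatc
GSTP1 (chr11:67583562-67583861, plus strand): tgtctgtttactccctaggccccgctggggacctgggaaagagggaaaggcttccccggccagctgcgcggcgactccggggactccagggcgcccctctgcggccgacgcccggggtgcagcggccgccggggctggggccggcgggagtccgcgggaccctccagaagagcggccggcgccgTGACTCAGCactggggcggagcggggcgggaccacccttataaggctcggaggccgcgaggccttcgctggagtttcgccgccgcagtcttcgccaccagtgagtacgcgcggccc
MT2A (chr16:56608334-56608633, plus strand): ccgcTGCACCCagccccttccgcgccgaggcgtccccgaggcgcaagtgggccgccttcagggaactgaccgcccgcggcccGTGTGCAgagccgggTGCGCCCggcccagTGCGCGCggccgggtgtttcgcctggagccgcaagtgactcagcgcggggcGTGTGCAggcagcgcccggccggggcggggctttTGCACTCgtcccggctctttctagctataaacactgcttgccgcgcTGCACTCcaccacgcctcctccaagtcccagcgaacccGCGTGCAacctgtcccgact

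The antioxidant response element core was found in the windows of 6 of the 25 members, namely AKR7A2, GPX2, GSTO1, GSTP1, MT2A and TXNRD1. That share is 24.0%, beside 13.3% of all 35116 windows and 16.4% of the 2243 windows of genes in the deposited table. In GPX2 the match began at position -122 from the start site, in GSTP1 at -66 and in MT2A at -104. The dioxin response element core was present in 60.0% of the members' windows and in 53.2% of the windows of listed genes, and the metal response element core in 40.0% and 41.0%. MT2A held 8 metal cores in 300 bases, more than any other member, whose windows held 0 to 2. These matches describe letters in the windows and not sites of binding.

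The libraries held 15235004 fragments (AGS-1 control), 15957590 (AGS-1 ISO), 20199425 (HGC-27 control) and 17072456 (HGC-27 ISO), recovered from the deposited values. The genes of the table took 78.5% of the fragments of the AGS-1 control library and 64.4%, 61.0% and 60.0% of those of the other libraries in the same order. Epithelial markers, of which 7 of 10 were in the table, summed to 2414 and 1611 FPKM in AGS-1 cells and to 5.87 and 4.73 FPKM in HGC-27 cells, where KRT19 was at 0. Mesenchymal markers (3 of 8 in the table) summed to 0.712 and 0.860 FPKM in AGS-1 cells and to 734 and 483 FPKM in HGC-27 cells, and fibroblast markers (2 of 7) to 9.75 and 6.83 against 776 and 602 FPKM. The label of an epithelial tumour cell was thus met by the keratins of AGS-1 but not of HGC-27 cells. LYZ was the 1 immune marker of 8 in the table, at 594 and 314 FPKM in AGS-1 cells and 0 in HGC-27 cells. CDH17 (78.7 and 44.3 FPKM in AGS-1 cells, 0 in HGC-27 cells) stood alone for 13 gastric and intestinal markers, and ESAM (33.5, 7.36, 1.63 and 3.07 FPKM over the 4 libraries) for 5 endothelial ones. As deposited, KRT7 (4.02 and 0.53 FPKM) and ESAM fell at least 2-fold with ISO in AGS-1 cells. TWIST1 (334 and 155 FPKM) did so in HGC-27 cells. The part of the marker differences in the results for the enzymes was not tested.

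The 31 members together summed to 2479 FPKM in the AGS-1 control, 1915 in AGS-1 with ISO, 1898 in the HGC-27 control and 1847 in HGC-27 with ISO. As deposited, the AGS-1 control stood above the other libraries, which lay close together. In AGS-1 cells the median of all genes was also lower with ISO, at a log2 ratio of -0.29. That shift depends on how the libraries are scaled, and its part in the sums was not tested. By summed FPKM the peroxiredoxins and the glutathione peroxidases each reached 524 FPKM in the AGS-1 control, the glutathione S-transferases 500 and the carbonyl, quinone and epoxide enzymes 397. In the HGC-27 control the peroxiredoxins came first with 564 FPKM, and the glutathione peroxidases and S-transferases reached 257 and 252. The plot of member levels sets the 4 libraries side by side and shows the distance of GPX2 and GSTM4 in HGC-27 cells from all the rest, none of which went below 7.74 FPKM (GSTM3 in HGC-27 cells with ISO).

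**Figure D1:**
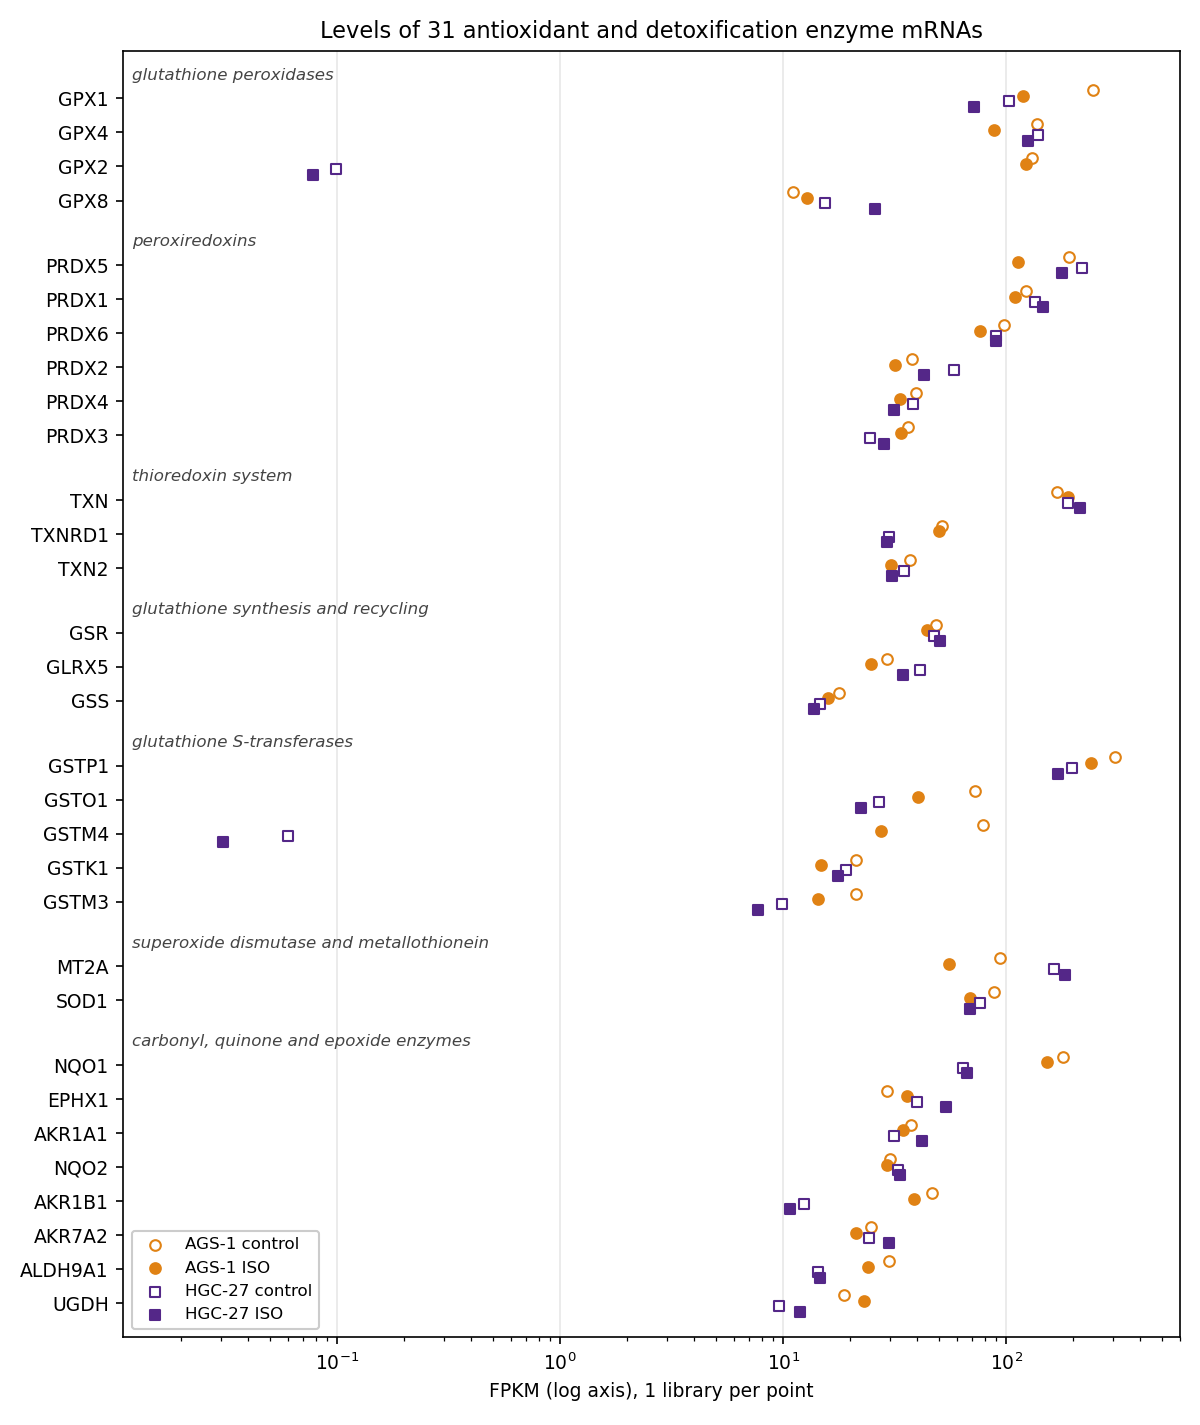
Level of each of the 31 enzyme mRNAs in FPKM on a log axis, with 1 point per library (open symbols control, filled symbols ISO, circles AGS-1, squares HGC-27) and the genes grouped by role. GPX2 and GSTM4 lie at 27.4 FPKM or more in AGS-1 cells and at 0.10 FPKM or less in HGC-27 cells.

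The first question was how ISO treatment moved these genes. In AGS-1 cells 2 of the 31 members, GPX1 and GSTM4, fell at least 2-fold and 0 rose, while 6.66% of all 2883 genes that averaged 1 FPKM or more fell, 0.832% rose and 7.49% changed either way by that fold. In HGC-27 cells 0 members changed 2-fold, where 1.49% of all genes did. The members' share was therefore close to the background in both lines. GPX2 and GSTM4 averaged under 1 FPKM in HGC-27 cells, on 2 to 7 fragments, so that their ratios there are set by the pseudocount, and the summaries for HGC-27 cells that follow rest on the other 29 members and on the 2717 genes that averaged 1 FPKM or more in each line. This limit was chosen after seeing the data. The members' median log2 ratios were -0.24 (AGS-1) and -0.03 (HGC-27), beside -0.29 and -0.11 for all genes, so that the members stood 0.05 and 0.08 above the median of all genes. A ratio below that median was seen for 12 of 31 members in AGS-1 and 13 of 29 in HGC-27 cells.

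The downward shift of all genes in AGS-1 cells depends on how the libraries are scaled. With median-of-ratios scaling the median of all genes in AGS-1 cells was -0.03, and with upper-quartile scaling it was 0.10. As deposited, 24 genes rose and 192 fell 2-fold in AGS-1 cells, against 50 and 72 with median-of-ratios and 60 and 45 with upper-quartile scaling. For the members the median in AGS-1 cells became 0.03 and 0.17, and the number above 0 went from 4 to 18 and 23 of 31. In HGC-27 cells the median of the 29 members was 0.04 and 0.12 under those scalings. Ratios relative to the median of all genes are therefore given below for the members that matter. Among the 29, 4 members (EPHX1, UGDH, GPX8 and TXN) had ratios above 0 in both lines under all 3 scalings, 5 (GPX1, GPX4, GSTM3, GSTO1 and PRDX5) had ratios below 0 in both, and 1 (MT2A) lay below 0 in AGS-1 and above 0 in HGC-27 cells. No share over all genes stands beside these counts, so nothing is read from their number.

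**Figure D2:**
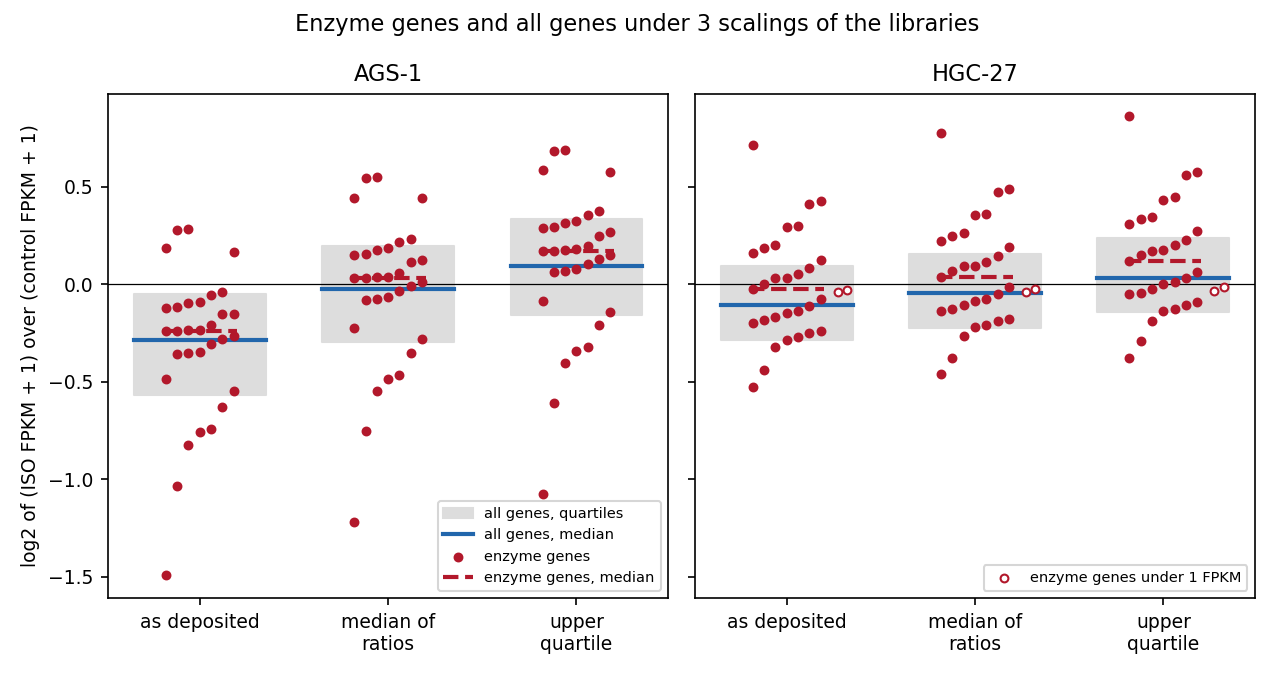
Log2 ratio of (ISO FPKM + 1) to (control FPKM + 1) of the enzyme genes (points, with their median as a dashed line, and with open points for GPX2 and GSTM4 in HGC-27 cells, which the median leaves out) under 3 scalings of the libraries, in AGS-1 (left) and HGC-27 cells (right), over the quartiles (grey) and median (blue) of all 2883 genes. The points move up with the grey boxes in AGS-1 cells, and the members' median stays within 0.1 of that of all genes under each scaling.

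Across the 29 members read in both lines, the ratios had a Pearson correlation of 0.68 and a Spearman correlation of 0.69, as a description over genes that share 4 libraries and are not independent of each other. Over the 2717 genes these were 0.40 and 0.43. In the plot of ratios in both lines, 13 of the 29 members lay above both medians of all genes and 8 below both. Of the 2717 genes, 905 lay above both and 905 below both.

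**Figure D3:**
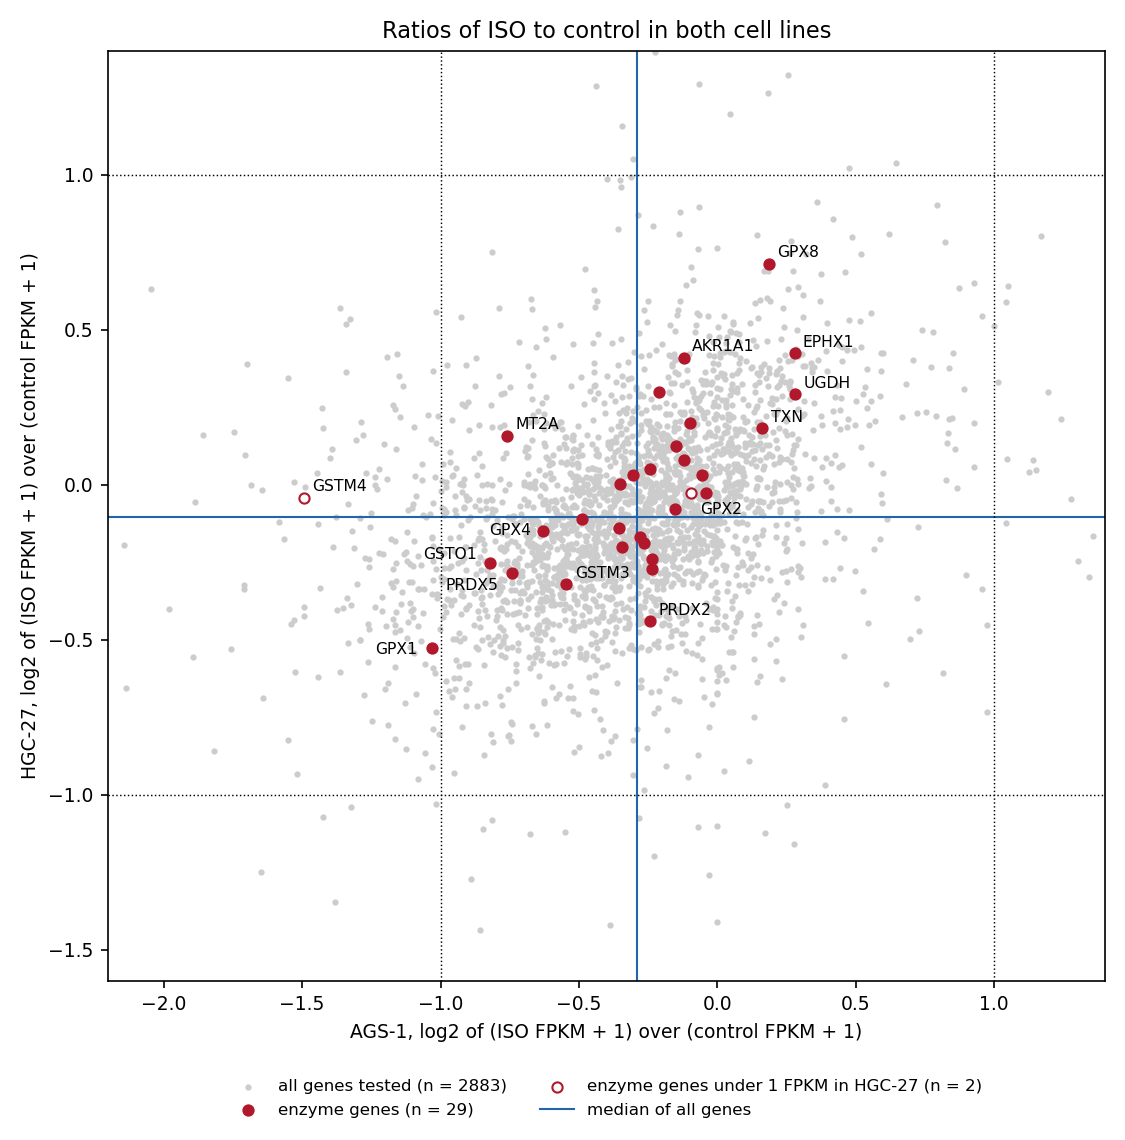
Log2 ratio of (ISO FPKM + 1) to (control FPKM + 1) in AGS-1 cells (horizontal) and in HGC-27 cells (vertical) for the 31 enzyme genes (red, open for GPX2 and GSTM4, whose HGC-27 ratios are set by the pseudocount) and all 2883 genes tested (grey, of which 20 lie outside the axes). Dotted lines mark 2-fold changes and blue lines the medians of all genes, and only GPX1 and GSTM4 among the enzymes lie past a dotted line.

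For the change shared by both lines, limma was fitted to log2(FPKM + 1) with a block for the line, and p-values were adjusted by the Benjamini-Hochberg method over all 2883 genes. Only 1 residual degree of freedom was left, so the spread came largely from other genes. That residual is the disagreement between the lines in their ISO change. The SE and p-values of this fit therefore do not measure variation between cultures. It called 0 of the 31 members at an adjusted p under 0.05, beside 0.937% of all genes. At an unadjusted p under 0.05 it found 2 members, GPX1 and GSTO1, beside 20.0% of all genes.

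The glutathione peroxidases reduce hydrogen peroxide and lipid peroxides with glutathione. GPX1 (ENSG00000233276, GRCh38 chr3:49357176-49358353, minus strand), the common form of the cytosol and mitochondria, read 244 FPKM in untreated and 119 FPKM in ISO-treated AGS-1 cells, and 103 and 71.5 FPKM in HGC-27 cells. Both ISO libraries lay below their own control, and the AGS-1 control lay above the other libraries. In AGS-1 cells GPX1 fell to 48.7% of control, a fold of 0.487 with a 95% counting interval of 0.462 to 0.512. In HGC-27 cells it stood at 69.2% of control (0.648 to 0.739), which was short of 2-fold. Against the median of all genes its log2 ratios were -0.74 (AGS-1) and -0.42 (HGC-27). GPX1 has 2 annotated pseudogenes. The 2-fold call in AGS-1 cells was lost under both other scalings, with log2 ratios of -0.76 and -0.61. Its shared log2 change in limma was -0.78 ± 0.25 (SE), with an unadjusted p of 0.0079 and an adjusted p of 0.13, the smallest adjusted p among the members.

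GPX4, which reduces lipid peroxides within membranes and restrains ferroptosis, read 138 and 88.6 FPKM in AGS-1 cells (control, then ISO) and 138 and 125 FPKM in HGC-27 cells. The controls of the lines were at the same level and the ISO library of AGS-1 cells was the lowest of the 4, with log2 ratios of -0.63 and -0.15. GPX2, a form typical of gut epithelium, was at 131 and 123 FPKM in AGS-1 cells and at 0.10 and 0.08 FPKM in HGC-27 cells, where only 3 and 2 fragments were counted. Its level in AGS-1 cells with ISO was 93.7% of control, unlike GPX1 and GPX4 in the same libraries. GPX8, a form bound to the membrane of the endoplasmic reticulum, had the members' largest log2 ratio in HGC-27 cells (0.71) and in the mean of the lines (0.45). In AGS-1 cells its log2 ratio of 0.19 lay below those of UGDH and EPHX1 (both 0.28). GPX8 read 11.1 and 12.8 FPKM in AGS-1 cells and 15.3 and 25.8 FPKM in HGC-27 cells. The ISO library was above control in both lines, by 1.15-fold (1.04 to 1.28) and 1.68-fold (1.56 to 1.81), and its shared log2 change in limma was 0.45 ± 0.21 (SE, adjusted p = 0.25). GPX8 overlaps CDC20B on the opposite strand, GPX2 overlaps CHURC1 likewise, and whether the counting used strand is not given in the sources used here.

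As deposited, the 5 glutathione S-transferases had log2 ratios below 0 in AGS-1 cells, from -1.49 to -0.35, and the 4 of them that were read in HGC-27 cells had ratios from -0.32 to -0.11 there. Upper-quartile scaling turned the sign for GSTP1 in AGS-1 cells (0.08) and for GSTK1 in HGC-27 cells (0.03). GSTM4 (ENSG00000168765, GRCh38 chr1:109656099-109674836, plus strand), a cytosolic transferase of the mu class, read 79.0 FPKM in untreated and 27.4 FPKM in ISO-treated AGS-1 cells, and 0.06 and 0.03 FPKM in HGC-27 cells. It fell in AGS-1 cells to 34.7% of control (0.332 to 0.364 as a fold), the lowest ratio of the 31 members in that line. The fall was 2-fold or more under all 3 scalings, with log2 ratios of -1.49, -1.22 and -1.08. In HGC-27 cells only 7 and 3 fragments were counted, which gives no usable ratio. GSTM4 overlaps its near relative GSTM2 on the same strand over 6815 bases, so that fragments may have been shared between the paralogs, and GSTM3 overlaps GSTM5 on the opposite strand.

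GSTO1, an omega-class transferase that also reduces dehydroascorbate, read 72.2 and 40.4 FPKM in AGS-1 cells and 26.8 and 22.3 FPKM in HGC-27 cells. It was lower with ISO in both lines, at 55.9% and 83.3% of control, and its shared log2 change in limma was -0.54 ± 0.21 (SE, adjusted p = 0.19). GSTM3, another mu-class transferase, stood at 21.3 and 14.3 FPKM in AGS-1 cells and at 9.92 and 7.74 FPKM in HGC-27 cells. GSTP1, the pi-class transferase that many carcinomas express at a high level, was the highest member in both AGS-1 libraries. Its levels were 306 and 241 FPKM in AGS-1 cells and 196 and 171 FPKM in HGC-27 cells, and its log2 ratios of -0.35 and -0.20 were within 0.1 of the median of all genes in both lines. GSTK1, the transferase of mitochondria and peroxisomes, ranged from 14.8 to 21.2 FPKM, with its lowest value in AGS-1 cells with ISO. None of GSTO1, GSTM3, GSTP1 and GSTK1 changed 2-fold.

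None of the 6 peroxiredoxins changed 2-fold in either line. PRDX5, which works in mitochondria, peroxisomes and the cytosol, had the lowest ratio of the family in AGS-1 cells. Its levels were 190 and 114 FPKM in AGS-1 cells and 218 and 179 FPKM in HGC-27 cells, or 59.6% and 81.9% of control, and its shared change in limma was -0.51 ± 0.26 on the log2 scale (SE, adjusted p = 0.28). PRDX1, the main cytosolic form, was at 122 and 110 FPKM in AGS-1 cells and at 134 and 147 FPKM in HGC-27 cells, so that both HGC-27 libraries were above both AGS-1 libraries and the ISO ratios as deposited lay on either side of 1. PRDX6, which also has phospholipase activity, read 97.9 and 76.4 FPKM in AGS-1 and 90.2 and 90.3 FPKM in HGC-27 cells. PRDX2, a second cytosolic form, had the lowest ratio of the family in HGC-27 cells, where it went from 58.4 to 42.8 FPKM (73.3% of control) beside 37.9 and 31.9 FPKM in AGS-1 cells. PRDX3, the mitochondrial form, ranged from 24.5 to 36.2 FPKM and PRDX4, the form of the endoplasmic reticulum, from 31.5 to 39.3 FPKM. PRDX2 overlaps HOOK2 on the same strand and has 4 annotated pseudogenes, as does PRDX3, which makes their counts less certain.

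Thioredoxin, TXN, which hands electrons to the peroxiredoxins, was among the 4 members above 0 in both lines. It read 169 and 189 FPKM in AGS-1 cells and 189 and 215 FPKM in HGC-27 cells. The ISO library was above control by 1.12-fold (1.06 to 1.18) in AGS-1 and by 1.14-fold (1.09 to 1.19) in HGC-27 cells, where it made TXN the highest of the members. Relative to all genes its log2 ratios were 0.45 and 0.29, while its shared log2 change in limma was 0.17 ± 0.25 (SE, adjusted p = 0.71). TXN has 7 annotated pseudogenes. TXNRD1, the cytosolic selenoenzyme that recycles thioredoxin, was at 51.3 and 49.9 FPKM in AGS-1 and at 29.7 and 29.2 FPKM in HGC-27 cells. As deposited, control and ISO of TXNRD1 thus differed by less than 3% in each line. Its log2 ratios relative to all genes were 0.25 (AGS-1) and 0.08 (HGC-27). Median-of-ratios scaling gave 0.23 and 0.04 in the same order, and the upper-quartile method gave 0.37 and 0.12. TXN2, the mitochondrial thioredoxin, lay between 30.3 and 37.0 FPKM. Together the thioredoxin system summed to 257 and 270 FPKM in AGS-1 and 253 and 274 FPKM in HGC-27 cells, the one group whose sum, as deposited, was higher with ISO in both lines. As deposited, only TXN within this group was higher with ISO, while TXNRD1 and TXN2 were lower in both lines.

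Among the enzymes that make and recycle glutathione, GSR, which reduces oxidised glutathione, ranged from 44.3 to 50.4 FPKM over the 4 libraries, and GSS, which completes glutathione synthesis, from 13.7 to 17.8 FPKM. GLRX5, a mitochondrial glutaredoxin of iron-sulphur cluster assembly, stood at 29.3 and 24.7 FPKM in AGS-1 cells and at 40.9 and 34.5 FPKM in HGC-27 cells, at 84.4% and 84.3% of control. The 3 genes summed to 95.4, 85.0, 103 and 98.6 FPKM over the 4 libraries, a narrow range beside that of the peroxidases.

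MT2A (ENSG00000125148, GRCh38 chr16:56608584-56609497, plus strand), a metallothionein that binds zinc and copper and takes up radicals, was the one member whose ratio lay on opposite sides of 0 in the 2 lines under all 3 scalings. In AGS-1 cells it read 94.0 FPKM untreated and 55.1 FPKM after ISO, and in HGC-27 cells 164 and 183 FPKM. Both HGC-27 libraries were above both AGS-1 libraries, and the ISO library was the lower of the pair in AGS-1 and the higher in HGC-27 cells. The ISO level was 58.6% of control in AGS-1 cells (fold 0.586, 0.536 to 0.641) and 112% in HGC-27 cells (fold 1.12, 1.06 to 1.18). MT2A belongs to a family of near-identical genes among which fragments may have been divided. Neither ratio reached 2-fold, and with 1 library per condition the difference between the lines could not be tested. SOD1, which turns superoxide into hydrogen peroxide in the cytosol, was at 88.0 and 68.5 FPKM in AGS-1 cells and at 76.2 and 69.1 FPKM in HGC-27 cells, where the ranges of the lines overlapped.

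The carbonyl, quinone and epoxide enzymes held 2 of the 4 members above 0 in both lines. EPHX1, the microsomal epoxide hydrolase, read 29.3 and 35.7 FPKM in AGS-1 cells and 39.7 and 53.7 FPKM in HGC-27 cells. It was above control by 1.22-fold (1.13 to 1.32) and 1.35-fold (1.27 to 1.44), and its shared log2 change in limma was 0.35 ± 0.20 (SE, adjusted p = 0.33). UGDH, which makes UDP-glucuronic acid for glucuronidation, was at 18.7 and 23.0 FPKM in AGS-1 cells and at 9.56 and 11.9 FPKM in HGC-27 cells, or 1.23-fold and 1.25-fold above control (adjusted p = 0.42, limma).

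NQO1, the quinone reductase widely used as a readout of NRF2, was at 180 and 152 FPKM in AGS-1 cells and at 64.3 and 66.7 FPKM in HGC-27 cells. ISO and control thus differed much less than the lines did, and its log2 ratios were 0.05 and 0.16 above the median of all genes. NQO2, a second quinone reductase, ranged from 29.1 to 33.5 FPKM over the 4 libraries. AKR1A1, an aldehyde reductase, read 37.4 and 34.3 FPKM in AGS-1 and 31.4 and 42.1 FPKM in HGC-27 cells, where it stood at 134% of control. AKR7A2, which reduces succinic semialdehyde and aflatoxin dialdehyde, ranged from 21.3 to 29.9 FPKM with its highest value in HGC-27 cells with ISO. AKR1B1, the aldose reductase of the polyol pathway, was at 46.4 and 38.5 FPKM in AGS-1 and at 12.4 and 10.8 FPKM in HGC-27 cells, and ALDH9A1, an aldehyde dehydrogenase of carnitine synthesis, at 29.9 and 24.0 against 14.3 and 14.7 FPKM.

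The second comparison was between the lines themselves. In the same limma fit, with the treatment as a block, 14 of the 31 members differed between AGS-1 and HGC-27 cells at an adjusted p under 0.05, which is 45.2%, beside 56.9% of all 2883 genes. Of these, 10 were higher in AGS-1 cells (all genes, 32.2%) and 4 in HGC-27 cells (all genes, 24.7%). The 10 include GPX2 and GSTM4, which entered the test only through their level in AGS-1 cells. Both libraries of one line stood above both of the other for 20 members, or 64.5%, beside 73.9% of all genes. The median size of the difference was 0.47 on the log2 scale for the members and 0.62 for all genes. These tests compare 2 libraries of each line, 1 with and 1 without ISO, and not independent cultures under one condition. In bulk RNA a lower level cannot be told apart as fewer expressing cells or less mRNA in each.

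GPX2 and GSTM4 differed most, by 6.88 ± 0.22 and 5.51 ± 0.38 (SE) on the log2(FPKM + 1) scale. Both averaged 1 FPKM or more over the libraries only through AGS-1 cells, and the size of their difference depends on the pseudocount. With a pseudocount of 0.1 it was 9.40 for GPX2 and 8.33 for GSTM4, and with 5 it was 4.70 and 3.37. Since HGC-27 cells had only a few fragments of either, the folds carry wide counting intervals. In the controls GPX2 was 1323-fold higher in AGS-1 cells (452 to 6418) and GSTM4 1306-fold higher (633 to 3249). With ISO the fold was 1571 for GPX2 (435 to 12979) and 894 for GSTM4 (306 to 4338). Next came AKR1B1 with a log2 difference of 1.79 ± 0.18, NQO1 with 1.32 ± 0.23 and GSTO1 with 1.11 ± 0.21. GPX1 (0.98), GSTM3 (0.92), UGDH (0.90), ALDH9A1 (0.84) and TXNRD1 (0.76) were also called higher in AGS-1 cells. MT2A was the member most in favour of HGC-27 cells, with a log2 difference of -1.25 ± 0.27 (SE, adjusted p = 0.0015, limma). GPX8 (-0.69), PRDX2 (-0.51) and EPHX1 (-0.50) followed. When the treatment was left out of the model, the calls for GPX1, GPX8, PRDX2 and EPHX1 were lost, at adjusted p between 0.088 and 0.16. The calls for PRDX2 and EPHX1 were also lost without the filter on low values.

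The other 17 members did not pass, among them GSTP1 (0.57 ± 0.26, adjusted p = 0.080, limma) and GLRX5 (-0.47 ± 0.19, adjusted p = 0.053). The smallest differences were those of AKR1A1, TXN2, GSTK1, PRDX4 and PRDX6, between -0.06 and 0.06 with SE of about 0.2. In the plot of differences between the lines the peroxiredoxins lie around 0 with PRDX2 the farthest out, while the glutathione S-transferases lie to the right of it, apart from GSTK1.

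**Figure D4:**
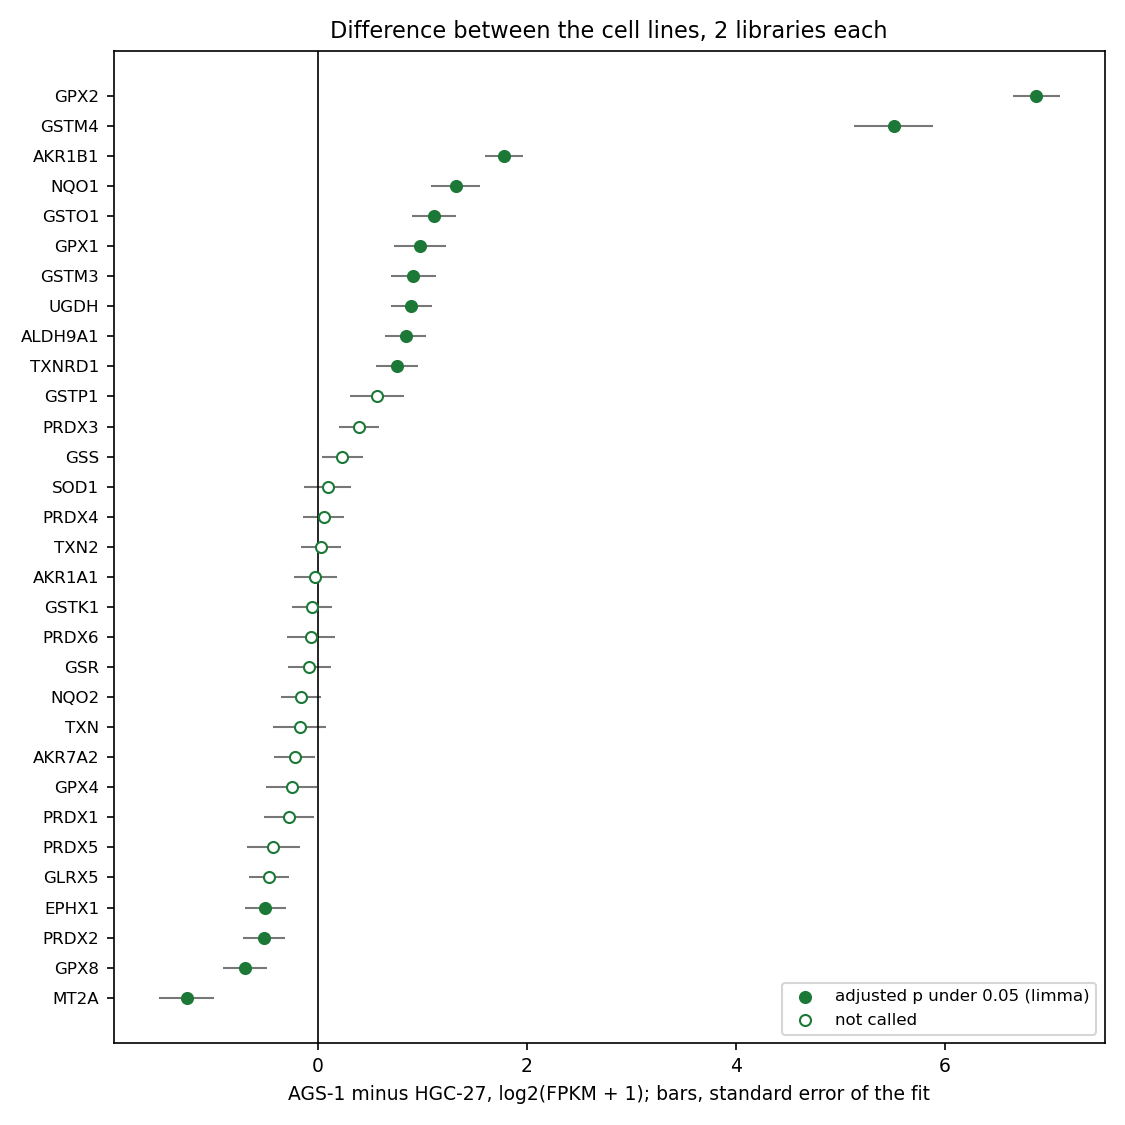
Fitted difference between AGS-1 and HGC-27 cells in log2(FPKM + 1) for the 31 enzyme genes, with bars for the standard error of the limma fit over 2 libraries per line and filled points for an adjusted p under 0.05. Of the filled points 10 lie to the right (higher in AGS-1 cells), up to 6.88 for GPX2, and 4 to the left, down to -1.25 for MT2A.

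Genes that surround these enzymes were counted from fixed lists, beside a background of 7.49% (AGS-1) and 1.49% (HGC-27) of all genes past the same fold. Nothing is read from counts in lists this small. Of 10 regulators of the NRF2 pathway 4 were in the table. NFE2L2, which encodes NRF2 itself, read 37.4 and 25.4 FPKM in AGS-1 cells and 17.8 and 11.8 FPKM in HGC-27 cells, with log2 ratios of -0.54 and -0.55. KEAP1, its inhibitor, was at 21.4 and 19.5 FPKM in AGS-1 and at 77.0 and 90.3 FPKM in HGC-27 cells. MAFK, a small partner of NRF2 on DNA, fell in AGS-1 cells from 41.6 to 18.8 FPKM, and it was the only 2-fold change of this list. Of 26 NRF2 targets outside the set, 12 were in the table and 1 changed 2-fold, CHAC1, which degrades glutathione and fell in HGC-27 cells from 82.2 to 37.2 FPKM.

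Of 18 genes of NADPH supply and use, 11 were in the table and 1 changed 2-fold, FASN, a consumer of NADPH in fatty acid synthesis, which rose in AGS-1 cells from 58.7 to 140 FPKM. Of 28 partners with a thioredoxin fold or a link to thioredoxin, 13 were in the table, and in AGS-1 cells 2 fell (TXNIP and PDIA4) and in HGC-27 cells 1 (TXNIP). TXNIP, which binds and inhibits thioredoxin, went from 312 to 65.1 FPKM and from 128 to 14.9 FPKM, while TXN itself was at 112% and 114% of control. It was the only gene of these lists called for a shared change (log2 change -2.63 ± 0.25, SE, adjusted p = 0.00037, limma). That limma call holds for the values as deposited. With either other scaling, or without the block for the line, 0 of all genes were called for a shared change. Of 22 genes of glutathione supply and handling, 10 were in the table, and SLC1A5, a glutamine carrier, fell in AGS-1 cells from 549 to 245 FPKM, beside CHAC1 in HGC-27 cells. The 5 listed genes of the aryl hydrocarbon receptor pathway (of 9), the 5 of metal handling (of 20) and the 8 other detoxification enzymes (of 29) held 0 changes of 2-fold in either line, which that background also allows. AHR itself was not analysed here. Under both other scalings MAFK, PDIA4 and SLC1A5 lost their 2-fold calls in AGS-1 cells, while TXNIP and FASN kept theirs. CHAC1 lost its call in HGC-27 cells with upper-quartile scaling only. PGD, an NADPH-producing enzyme of the pentose phosphate pathway (35.0 and 63.9 FPKM in AGS-1 cells), and FTH1, the ferritin heavy chain (182 and 327 FPKM), rose 2-fold in AGS-1 cells under the other scalings and not as deposited, and both were picked out after their values were seen.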

How the data were processed

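Total RNA of 4 libraries was made into mRNA-seq libraries, 1 per cell line and condition. The deposited data are 1 table of gene lengths, coordinates and expression values, whose unit was taken to be FPKM as calculated by the authors. CASAVA 1.8, HISAT2 and the build GRCh38 come from the submitters' processing notes, while the counting tool and how the genes of the table were selected are not given in the sources used here. When multiplied by length, 100% of values fell on whole multiples of a library's step (tolerance 0.1), which gave fragments and library totals for counting intervals (exact, 95%). Depth is given with the libraries.

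Log2 ratios used a pseudocount of 1 FPKM. The shared ISO change and the line difference were fitted with limma 3.58.1 in R 4.3.3 (lmFit, eBayes with a trend) on genes averaging 1 FPKM or more. The fit was also run on simulated data in which the lines did not differ in their ISO change. Such a run cannot show how the calls behave where the lines differ in that change. The rest was done in Python 3.11.15 (pandas 2.3.3, numpy 2.4.6, scipy 1.17.1) and drawn with matplotlib 3.10.9. Overlapping genes and pseudogenes come from GENCODE 29 and promoter windows from RefSeq.

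The members and lists were chosen with earlier results of these data known. Full values are given for members changed 2-fold, the 5 largest rises and falls, the 10 highest levels and the 10 largest line differences, and all members are named. A further rule asked for a log2 ratio relative to all genes of at least 0.3 in opposite directions in the lines, and 0 members met it. From the lists, cell type markers included, genes changed 2-fold or called by limma are named, and NFE2L2 and KEAP1 as regulators. Alternatives were other pseudocounts, filters and scalings, no block and no trend.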

Additional observations from a re-analysis of the deposited data

Results flagged for a closer look

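MT2A had ratios of ISO to control on opposite sides of 0 in the lines. Its log2 ratios were -0.76 (AGS-1) and 0.16 (HGC-27), a difference of -0.92, and the signs were opposite under all 3 scalings (-0.48 and 0.22 with median-of-ratios, -0.34 and 0.31 with upper-quartile scaling). The single library of each condition moved one way in one line and the other way in the other, and the difference was not tested. Relative to the median of all genes the log2 ratios were -0.47 (AGS-1) and 0.26 (HGC-27). A rule for naming members asked for at least 0.3 in opposite directions on that measure, and 0 members met it. No share of all genes with opposite signs stands beside this result.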

How the results depend on the processing

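With 1 library per condition and line, leaving out a replicate leaves no ratio, so no such alternative was run. No pairing finer than the cell line was possible, because the labels give no replicate numbers. The cell line served as the block, and without it limma called 0 genes for the shared change. With median-of-ratios and with upper-quartile scaling, 1 member in place of 2 changed 2-fold in AGS-1 cells (GSTM4 kept its call and GPX1 lost it), and the members' median log2 ratio there moved from -0.24 to 0.034 and 0.17. This follows from the construction of those scalings, which shift all genes together. With genes averaging 1 FPKM or more in each line, added after seeing the data, 29 members were left and 1 of them (GPX1) changed 2-fold in AGS-1 cells, since GSTM4 and GPX2 drop out. The medians relative to all genes, an alternative chosen after seeing the data, stayed at 0.06 and 0.08 in AGS-1 cells. The members called for the shared change were 0 under every alternative run, with a smallest adjusted p (limma) from 0.077 with a pseudocount of 0.1 to 1.00 without the block for the cell line. Over all genes that count went from 27 to 107 with a pseudocount of 0.1, 12 with 5, 6 without the filter, 104 with a minimum of 10 FPKM, 6 without a trend and 0 with either scaling or without the block, and the cause was not tested. Between the lines, 14 members were called as reported and between 10 (no treatment block) and 18 (upper-quartile scaling) under the alternatives. EPHX1 lost its call with a pseudocount of 5, without the filter, without the block and without a trend, PRDX2 under the last 3 of these, and GPX1 and GPX8 without the block. Depth limits GPX2 and GSTM4 in HGC-27 cells, at 2 to 7 fragments, and no value has a replicate error.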

Other observations

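Over the 31 members in AGS-1 cells, the log2 ratio of ISO to control had a Spearman correlation of -0.44 with the GC content of the gene and of 0.25 with its length. Over all 2883 genes the correlation with GC content was -0.10 (2862 genes with a value). These are descriptions across genes that share libraries, and their part in the ratios was not tested.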
